A study of Arabidopsis thaliana with 6 samples.

Results

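SAG29, WRKY6 and WRKY53 are 3 genes of Arabidopsis thaliana whose transcripts are used as readouts of leaf ageing. They were taken by name from the array annotation. SAG29 is locus AT5G13170, WRKY6 is AT1G62300 and WRKY53 is AT4G23810. Each had 1 probe set assigned to it alone, so the 3 genes were followed with 3 of the 22810 probe sets on the array, of which 13513 carried a single gene name. Their probe sets were 245982_at, 264746_at and 254231_at, and all 3 passed the low-signal limit described below.

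Leaf senescence is the last phase of leaf life, in which chloroplasts are taken apart and sugars, nitrogen and other nutrients are moved to growing parts. SAG29, also called SWEET15, encodes a sucrose transporter of the plasma membrane whose transcript accumulates in ageing leaves and under osmotic stress. WRKY6 and WRKY53 encode transcription factors with the WRKY DNA-binding domain, which recognises the W-box element in promoters. WRKY6 is known for its expression in senescing leaves and after pathogen attack, and WRKY53 for acting early in leaf senescence and for responding to salicylic acid (SA) and hydrogen peroxide. SA, a hormone of defence, is itself known to promote parts of the senescence programme.

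Whole rosettes of the sid2.2 mutant and of the wild type Col-0 were compared. The mutation lies in ICS1, which encodes the isochorismate synthase that feeds SA synthesis. Both genotypes had low sulfate, 0.016 mM, up to day 60, in short days (16 h dark and 8 h light, with 160 µmol of photons per m2 and second), so no well-fed plants stand beside them here. Each of 3 cultures, grown months apart, gave 1 RNA pool per genotype from the rosettes of more than 6 plants, hence n = 3 arrays for sid2.2 and n = 3 for Col-0. A pool averages leaves of all ages in a rosette, and in such bulk tissue a larger number of senescing cells and more transcript per cell cannot be told apart.

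The values are MAS5 signal intensities on a linear scale. Differences are sid2.2 minus Col-0 on the log2 scale, tested with limma over 13647 probe sets. A probe set counts as called where its p, adjusted by Benjamini and Hochberg's method, is under 0.05. By this rule 3 probe sets were called, 0.0220% of those tested, of which 2 (0.0147%) were higher and 1 (0.00733%) was lower in sid2.2. None of the 3 genes was among them. At an unadjusted p under 0.05 there were 1010 probe sets, 7.40% of those tested. The p-values measure the spread between these pools.

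Some features of the arrays touch every result below. The tissue was leaf-like: RCA, LHCB4.1, PRK and SBPASE, genes of photosynthesis, had signals of 5038 to 24346 in sid2.2 and 5410 to 22785 in Col-0. The root marker PYK10 had 32.0 to 232 in sid2.2 and 44.4 to 170 in Col-0. The 95th percentile of bacterial control probe sets was 27.9 to 39.9 in sid2.2 and 28.7 to 31.8 in Col-0. PYK10 lay above that percentile of the same array on all 6 arrays. Of the 9 listed leaf markers the 4 named above were tested. The other leaf markers and the 10 listed flower and seed markers were not analysed here. On the first principal component, 55.5% of the variance, the arrays did not sort by genotype alone: sid2.2 scored 11.9, 54.3 and -3.37 in cultures 1, 2 and 3, against -41.3, -51.4 and 29.8 in Col-0. The 3' over 5' signal ratio of an actin control, a sign of RNA and target integrity, was 5.34, 6.51 and 8.34 in sid2.2 and 4.91, 4.85 and 4.81 in Col-0. A GAPDH control gave 2.93, 3.26 and 3.87 in sid2.2 and 2.81, 2.74 and 2.33 in Col-0. Both ratios were higher on every sid2.2 array. A further actin pair gave 17.3, 37.1 and 23.3 in sid2.2 and 24.7, 15.0 and 19.7 in Col-0, and a further GAPDH pair 1.16, 1.26 and 1.26 in sid2.2 and 1.30, 1.16 and 1.07 in Col-0. Both of these overlapped between genotypes. The part of these ratios and of the first component in the results on SAG29, WRKY6 and WRKY53 was not tested.

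Of the 3 genes, SAG29 had the largest difference between genotypes. Its signal was 288, 469 and 364 in sid2.2 cultures 1, 2 and 3, against 86.6, 128 and 172 in Col-0. Every sid2.2 array lay above every Col-0 array, and the lowest sid2.2 value was 1.68 times the highest Col-0 value. The mean was 374 ± 90.5 in sid2.2 and 129 ± 42.7 in Col-0 (SD, n = 3 each). The fitted difference was 1.56 (SE 0.32), a 2.96-fold higher signal in sid2.2 with a 95% confidence interval of 1.78-fold to 4.90-fold. The unadjusted limma p was 0.00098, and 34 of the 13647 probe sets had a smaller one. The adjusted p was 0.348, so SAG29 was not called.

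WRKY6 was the dimmest of the 3 probe sets and the one whose genotypes came closest to overlapping in a single culture. Its signal was 137, 216 and 125 in sid2.2, against 57.9, 60.7 and 114 in Col-0. All sid2.2 values lay above all Col-0 values, but sid2.2 in culture 3 exceeded Col-0 in culture 3 by only 1.098 times. The mean was 159 ± 49.4 in sid2.2 and 77.5 ± 31.6 in Col-0 (SD, n = 3 each). The difference was 1.07 (SE 0.37), or 2.10-fold, with a 95% confidence interval of 1.18-fold to 3.73-fold. The limma p was 0.0176 unadjusted and 0.581 adjusted.

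WRKY53 had the smallest difference and also the smallest spread between cultures. Its signal was 496, 580 and 451 in sid2.2, against 424, 390 and 352 in Col-0. The genotypes again did not overlap, with the lowest sid2.2 value at 1.06 times the highest Col-0 value. The mean was 509 ± 65.3 in sid2.2 and 389 ± 36.0 in Col-0 (SD, n = 3 each). The coefficient of variation was 12.8% in sid2.2 and 9.27% in Col-0, against 24.2% and 33.2% for SAG29 and 31.0% and 40.8% for WRKY6. The difference of 0.39 (SE 0.22), or 1.31-fold, had a 95% confidence interval from 0.928-fold to 1.84-fold. The limma p was 0.110 unadjusted and 0.750 adjusted.

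**Figure D1:**
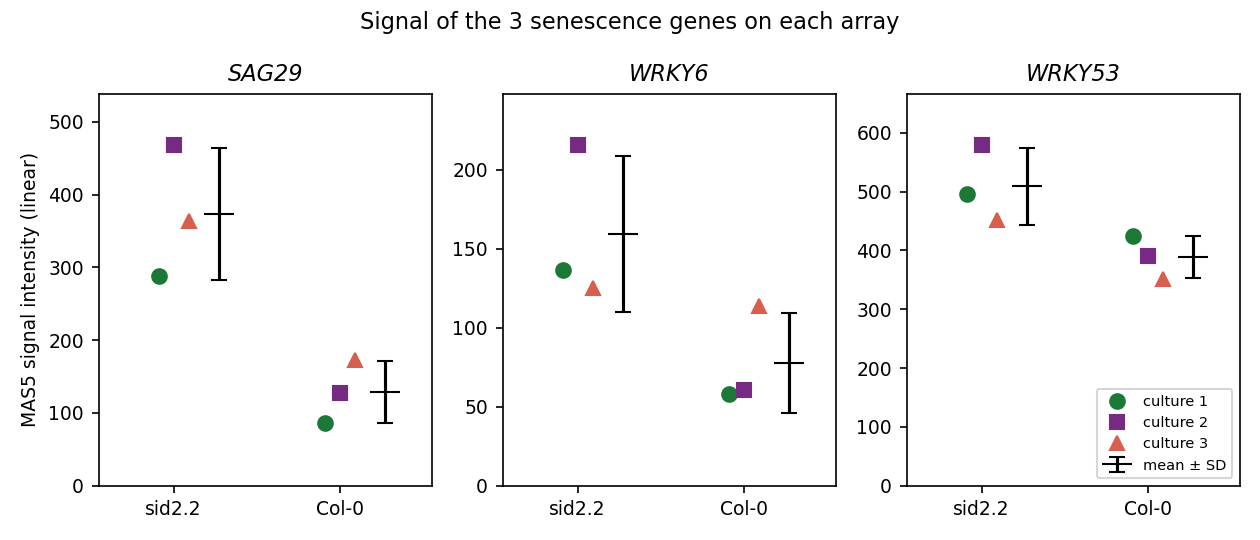
MAS5 signal intensity (linear, y axis from 0) of SAG29, WRKY6 and WRKY53 on the 3 sid2.2 and the 3 Col-0 arrays, with 1 point per array marked by culture and bars for the mean ± SD (n = 3). In each panel all sid2.2 points lie above all Col-0 points, with the narrowest gaps for WRKY53 and WRKY6.

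Read against all probe sets tested, complete separation of the genotypes in this direction occurred for 3 of 3 genes, where 874 of 13647 (6.40%) showed it and 5.58% were separated the other way. A positive difference in all 3 cultures follows from complete separation, so for the 3 genes it adds no further result. It was seen for 11.0% of probe sets, with 10.5% negative in all 3. An unadjusted p under 0.05 with a higher level in sid2.2 was seen for SAG29 and WRKY6, and for 4.65% of probe sets. In size, 140 probe sets (1.03%) had a larger positive difference than SAG29, 317 (2.32%) a larger one than WRKY6 and 2041 (15.0%) a larger one than WRKY53. These counts describe the 3 genes, which were picked with earlier results of the same arrays known.

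The difference varied with the culture most for WRKY6. Within cultures 1, 2 and 3 the log2 difference of WRKY6 was 1.24, 1.83 and 0.13, which corresponds to 2.36-fold, 3.55-fold and 1.098-fold. For SAG29 it was 1.74, 1.87 and 1.08, or 3.33-fold, 3.66-fold and 2.12-fold. WRKY53 had 0.23, 0.57 and 0.36, or 1.17-fold, 1.49-fold and 1.28-fold. Culture 2 gave the largest difference for all 3 genes. Culture 3 gave the smallest for SAG29 and WRKY6, and culture 1 for WRKY53. With 1 array per genotype in a culture, these differences between cultures were not tested.

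**Figure D2:**
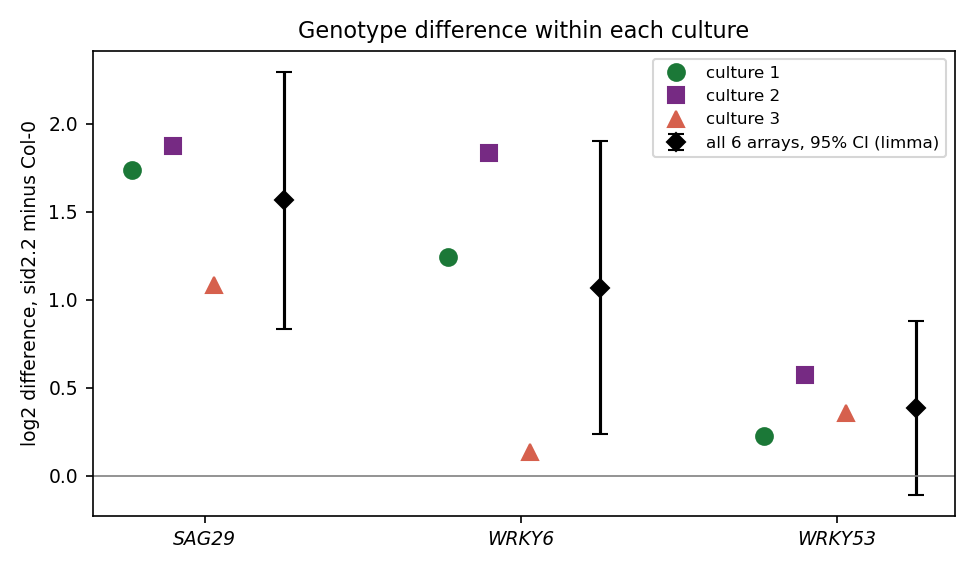
Log2 difference, sid2.2 minus Col-0 (y axis), of each gene within each culture (coloured points, 1 pair of arrays each) and over all 6 arrays (black diamonds with the 95% confidence interval from limma). All 9 within-culture points are above 0, which the complete separation of the genotypes fixes. WRKY6 in culture 3 is the lowest at 0.13, and the interval of WRKY53 reaches below 0.

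The culture itself was then tested beside genotype, to ask whether the genes differed between growth rounds. Averaged over both genotypes, the geometric mean signal of SAG29 was 158, 245 and 250 in cultures 1, 2 and 3. For WRKY6 it was 88.9, 114 and 119, and for WRKY53 459, 475 and 398. The limma F test of culture gave unadjusted p values of 0.241 for SAG29, 0.696 for WRKY6 and 0.748 for WRKY53 (all adjusted p = 0.9999). It called 0% of the 13647 probe sets, and 0.213% had an unadjusted p under 0.05. That share is far below what a limit of 0.05 gives where nothing differs. The test was thus conservative here and cannot show that the genes were alike between cultures.

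The order of the arrays showed where the genes parted. The highest value of each gene was in sid2.2 culture 2. For SAG29 the order went on with sid2.2 cultures 3 and 1, then Col-0 cultures 3, 2 and 1. For WRKY6 it went on with sid2.2 cultures 1 and 3, then Col-0 cultures 3, 2 and 1. For WRKY53 it went on with sid2.2 cultures 1 and 3, then Col-0 cultures 1, 2 and 3. Thus the Col-0 arrays stood in one order for SAG29 and WRKY6 and in the opposite order for WRKY53. Col-0 culture 3 had 1.99 times the SAG29 signal and 1.97 times the WRKY6 signal of Col-0 culture 1, but for WRKY53 Col-0 culture 1 was 1.20 times Col-0 culture 3. Some neighbours in these orders were close: WRKY6 in sid2.2 cultures 1 and 3 (137 and 125), in sid2.2 culture 3 and Col-0 culture 3 (125 and 114), and in Col-0 cultures 2 and 1 (60.7 and 57.9) differed by less than the SD of either genotype. The neighbours of WRKY53 at the border of the genotypes, 451 in sid2.2 culture 3 and 424 in Col-0 culture 1, also differed by less than the SD of either genotype. So did pairs behind the Col-0 orders: SAG29 in cultures 2 and 1 (128 and 86.6) and WRKY53 in cultures 1 and 2 (424 and 390).

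**Figure D3:**
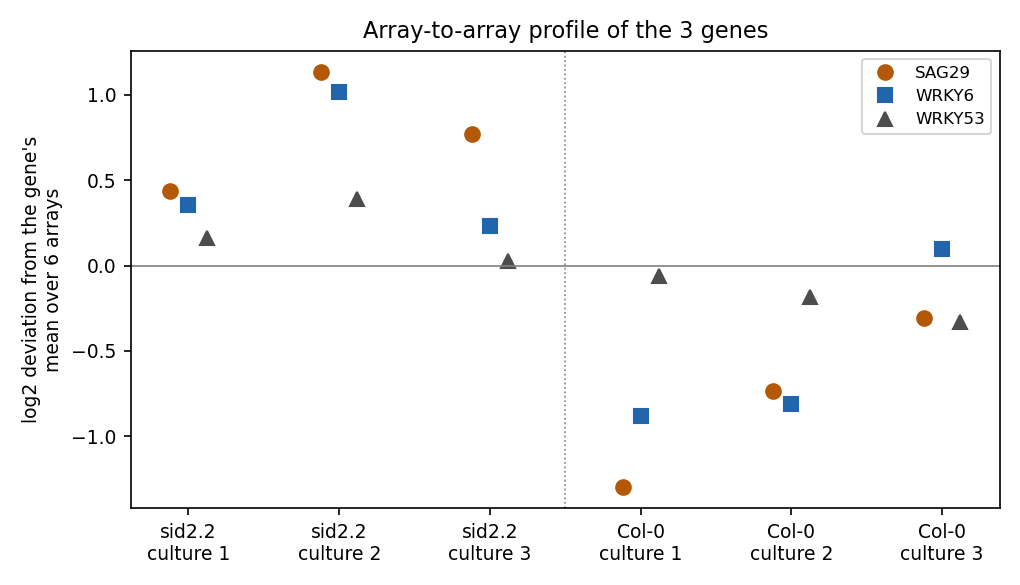
Deviation of each array from the gene's own mean over the 6 arrays (log2, y axis) for SAG29 (circles), WRKY6 (squares) and WRKY53 (triangles), with the 3 sid2.2 arrays left and the 3 Col-0 arrays right of the dotted line. SAG29 spans 2.44 and WRKY6 1.90 log2 units while WRKY53 spans 0.72, and on Col-0 culture 3 WRKY6 stands above its own mean (0.095) and WRKY53 at its lowest point (-0.33).

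Over all 6 arrays the correlation of SAG29 and WRKY6 was higher than that of either with WRKY53. The 2 arrays left out below were not the same for all pairs. The values without them therefore do not show whether this order held. For SAG29 and WRKY6 Pearson's r over the 6 arrays was 0.94 (exact permutation p = 0.00694, two-sided, adjusted p = 0.0208 over the 3 pairs) and Spearman's rho was 0.94 (exact p = 0.0167, adjusted p = 0.05). Without the 2 arrays farthest from the median of SAG29, sid2.2 culture 2 and Col-0 culture 1, r was 0.83 and no longer passed (n = 4, exact permutation p = 0.125), with fewer arrays in the test. For SAG29 and WRKY53 r was 0.71 (exact permutation p = 0.119, adjusted 0.129) and rho 0.71 (exact p = 0.136, adjusted 0.136), and r was 0.76 without the same 2 arrays. For WRKY6 and WRKY53 r was 0.68 (exact permutation p = 0.129, adjusted 0.129) and rho 0.77 (exact p = 0.103, adjusted 0.136), and r was 0.87 without Col-0 cultures 1 and 2. The difference between these correlations was not tested. The genotypes do not overlap for any of the genes, so each r includes the genotype difference. The permutations ignored genotype, so their p-values do not test whether the genes follow each other apart from it. With 3 arrays per genotype there are too few for an r within a genotype.

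Whether the genotype difference was of unequal size between the genes was tested on the within-array log2 ratio of their signals. The ratio of SAG29 to WRKY53 was -0.78, -0.31 and -0.31 in sid2.2, against -2.29, -1.61 and -1.03 in Col-0, without overlap. Its genotype difference was 1.18 (two-sided exact permutation p = 0.1, adjusted 0.15 over the 3 ratios); no smaller p exists for 3 against 3 arrays. The ratio of SAG29 to WRKY6 was 1.08, 1.12 and 1.54 in sid2.2, against 0.58, 1.08 and 0.59 in Col-0. It differed by 0.49 (exact permutation p = 0.1, adjusted 0.15). The ratio of WRKY6 to WRKY53 was -1.86, -1.43 and -1.85 in sid2.2, against -2.87, -2.68 and -1.63 in Col-0, with Col-0 culture 3 above 2 of the sid2.2 arrays. It differed by 0.68 (exact permutation p = 0.3, adjusted 0.3). None of the ratios could therefore pass 0.05.

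SAG29 was called in 3 alternative settings, each of them without Col-0 culture 3. Without Col-0 culture 3, the array with the highest SAG29 signal of its genotype, the difference was 1.80 and the limma adjusted p was 0.0245. Without both arrays of culture 3 it was also 1.80 (adjusted p = 0.0241). Without Col-0 culture 3 and sid2.2 culture 2 together, the 2 arrays that score highest on the first component within their genotypes, it was 1.62 (adjusted p = 0.0432). That last setting was chosen with the data in view. Over 17 alternatives the adjusted p ran from 0.0241 to 0.999, and the difference from 1.25 to 1.80. In those same 3 settings 302, 728 and 235 probe sets were called, against 3 with all arrays. The unadjusted limma p of SAG29 there was 0.000255, 0.000622 and 0.00061, against 0.00098 with all arrays. An adjusted p also depends on the p-values of the other probe sets.

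With culture as a block in the limma fit none of the 3 genes passed. In that fit 4.03% of probe sets were under 0.05 before adjustment, SAG29 and WRKY6 among them. WRKY6 did not pass in any of its 17 alternatives (limma adjusted p 0.0559 to 0.999). Its difference was 0.69 without culture 2, 1.54 without culture 3 and 1.14 without the pair of arrays named above. The lowest adjusted p, 0.0559, came without culture 3. WRKY53 did not pass in any of its 18 alternatives (adjusted p 0.430 to 0.999), with a difference from 0.22 to 0.47. The difference of 0.22 came without that same pair of arrays, where WRKY53 moved by over 1.5 times.

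**Figure D4:**
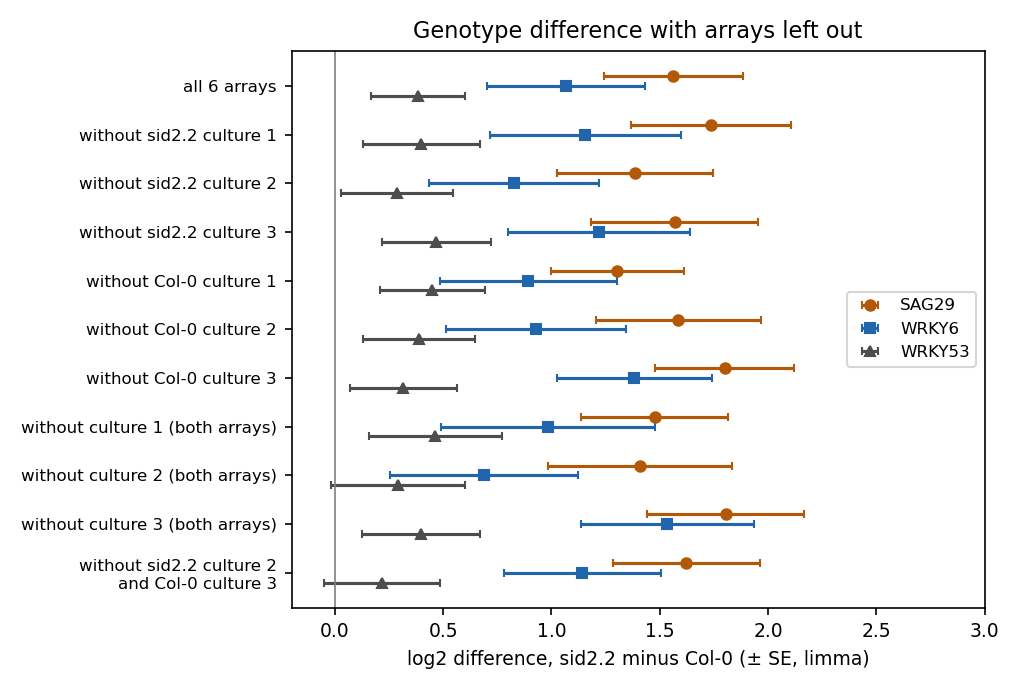
Log2 difference, sid2.2 minus Col-0, with its SE from limma (x axis) for SAG29, WRKY6 and WRKY53, over all 6 arrays (top row) and with arrays or cultures left out. SAG29 stays between 1.30 and 1.80, WRKY6 between 0.69 and 1.54 and WRKY53 between 0.22 and 0.47. All points lie above 0, as they must where the genotypes do not overlap.

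Other genes of leaf senescence were taken from 6 lists drawn from general knowledge: regulators, senescence-associated genes, chlorophyll breakdown, proteases and nucleases, dark-induced genes and nitrogen remobilisation. Of their 65 loci, 10 were named alone on a probe set in the annotation used and 8 were tested. None was called, in either direction, where 0.0220% of all probe sets tested were. Of the 8, 1 had an unadjusted limma p under 0.05, as did 7.40% of all probe sets tested. Of the 8, 6 lay above 0, where 49.4% of all probe sets did, with a median of 0.35 against -0.0051 over all probe sets. With Col-0 replicate 3 left out 1 of these genes was called, as given next.

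YLS5 was the one tested gene of these lists whose genotypes did not overlap, where 6.40% of all probe sets were separated with sid2.2 higher. It is named as a yellow-leaf-specific gene and belongs to the DJ-1 family. Its signal was 1966, 3118 and 1375 in sid2.2, against 663, 741 and 1037 in Col-0. As with SAG29 and WRKY6, sid2.2 culture 2 was the highest array and Col-0 culture 3 the highest Col-0 array. Its difference was 1.35 (SE 0.32, limma adjusted p = 0.404). It passed in limma without Col-0 culture 3 (1.54, adjusted p = 0.0450) and with culture 3 left out (1.82, adjusted p = 0.0107). It also passed with the arrays Col-0 culture 3 and sid2.2 culture 2 left out (1.23, adjusted p = 0.0454), the setting chosen with the data in view. In these 3 settings 302, 728 and 235 probe sets were called, against 3 with all arrays. Over 18 alternatives the limma adjusted p of YLS5 ran up to 0.999.

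The remaining members of these lists overlapped between genotypes. AT2G25625 differed by 0.61 (adjusted p = 0.695), with 1300, 2009 and 1919 in sid2.2 and 1310, 806 and 1335 in Col-0. GAMMA-VPE, a vacuolar cysteine protease that matures other vacuolar enzymes, differed by 0.57 (adjusted p = 0.775). PPDK, which supplies carbon skeletons for nitrogen export from ageing leaves, differed by 0.37 (adjusted p = 0.789), and EIN3, a transcription factor of ethylene signalling, by 0.32 (adjusted p = 0.852). SAG101, a partner of the immune regulator EDS1, differed by 0.042 (adjusted p = 0.985), with its sign turned by both scalings tried. NOL, which reduces chlorophyll b, differed by -0.029 (adjusted p = 0.979) and BETA-VPE by -0.069 (adjusted p = 0.958). None of the 12 listed partners and targets of WRKY6 and WRKY53, and none of the 15 abscisic acid genes, was named alone on a probe set in the annotation used, which gives no name for 8794 probe sets and several for 503, so these were not analysed here.

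Within the WRKY family the 3 other tested members had smaller differences than WRKY6. Of 72 loci with a WRKY symbol or synonym 7 had a probe set and 5 were tested, WRKY6 and WRKY53 included. None was called. WRKY47, of the same subgroup as WRKY6, differed by 0.47 (SE 0.36, adjusted p = 0.809), with 176, 331 and 159 in sid2.2 and 148, 112 and 210 in Col-0. ZAP1, also called WRKY1, differed by 0.27 and WRKY20 by 0.26 (adjusted p = 0.848 and 0.846). Among members of the subgroup of WRKY53, which also includes WRKY70 and WRKY54, WRKY53 was the one gene named alone on a probe set in that annotation, and the others were not analysed here.

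Among the tested sugar transporters of its family SAG29 had the largest difference, which was not itself tested against the others. Of 17 SWEET loci 16 had a probe set and 8 were tested, with 4 above and 4 below 0 and a median of 0.023. No SWEET gene was called, where 0.0220% of all probe sets tested were. SWEET11, which exports sucrose to the phloem of leaves, had 3428, 5014 and 3273 in sid2.2 and 2435, 2803 and 5446 in Col-0 (difference 0.20, adjusted p = 0.903). SWEET13, of the same clade as SAG29, had 1752, 1709 and 2164 in sid2.2 and 2137, 1730 and 1848 in Col-0 (difference -0.026, adjusted p = 0.982). SWEET17, a fructose transporter of the vacuole, differed by -0.29 (adjusted p = 0.843), and SWEET1, a glucose transporter, by 0.071 (adjusted p = 0.963), with its sign turned by median centring. The other tested members, SWEET2, SWEET4 and SWEET16, differed by 0.28, -0.31 and -0.63 (adjusted p = 0.840, 0.821 and 0.788). Under the low-signal limit, and so without a test, SWEET7 differed by -2.10, more in size than SAG29, SWEET6 by 1.27 and SWEET8 by 1.02. The sid2.2 signals of SWEET7 (2.39, 20.7 and 19.4) all lay under the 95th percentile of the bacterial controls on their arrays (39.4, 27.9 and 39.9). SWEET6 lay above that percentile on 4 of 6 arrays and SWEET8 on 5.

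Photosynthesis genes, whose transcripts decline in ageing leaves, were set beside the 3 genes by culture. RCA, the activase of Rubisco, differed by 0.20 (adjusted p = 0.885), and LHCB4.1, a light-harvesting protein, by 0.15 (adjusted p = 0.887). The Calvin cycle enzymes PRK and SBPASE differed by -0.11 and -0.37 (adjusted p = 0.952 and 0.826). Within cultures 1, 2 and 3 the difference was 0.15, -0.60 and 1.05 for RCA, -0.015, -0.31 and 0.77 for LHCB4.1, 0.32, -1.42 and 0.77 for PRK, and -0.30, -1.36 and 0.56 for SBPASE. The difference of all 4 was lowest in culture 2, where SAG29, WRKY6 and WRKY53 had their largest positive difference. It was highest in culture 3, where SAG29 and WRKY6, but not WRKY53, had their smallest. The arrays sid2.2 culture 2 and Col-0 culture 3 also scored highest on the first component within their genotypes (54.3 and 29.8). The part of that component here was not tested. The root marker PYK10 differed by 0.14 (adjusted p = 0.971).

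**Figure D5:**
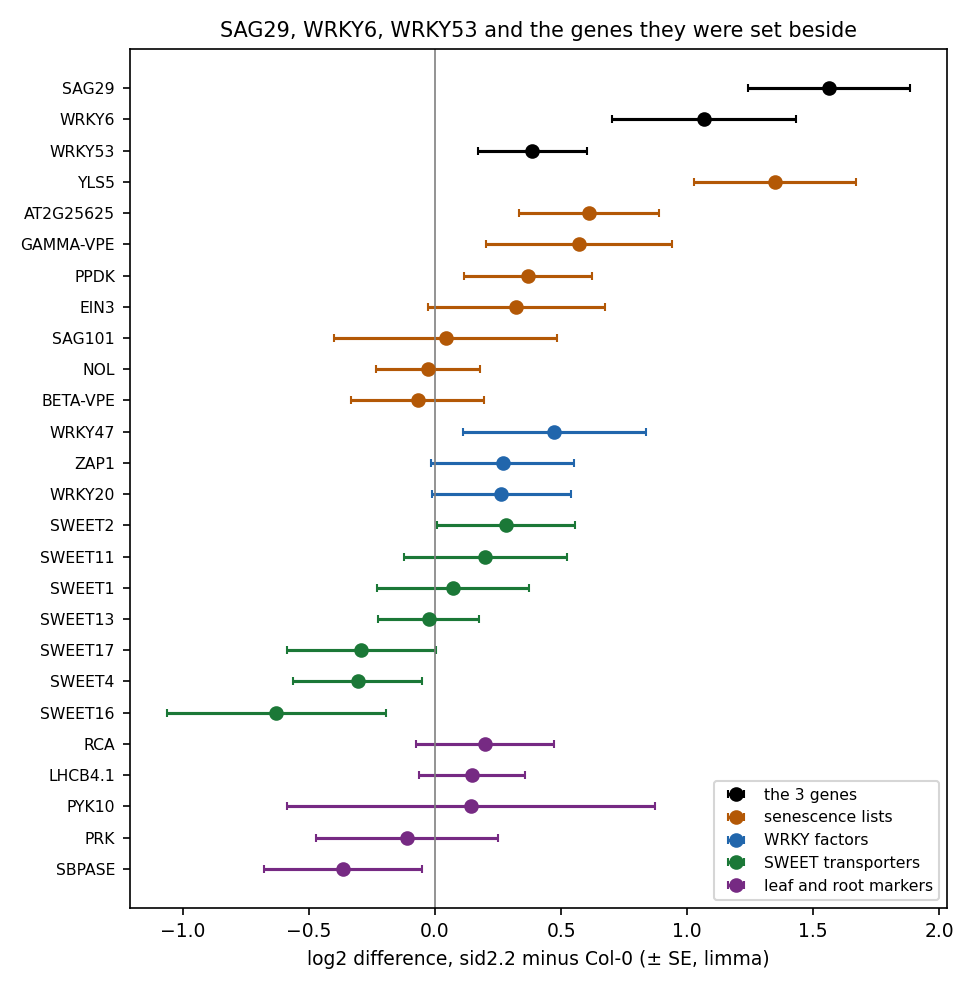
Log2 difference, sid2.2 minus Col-0, with its SE from limma (x axis) for the 3 genes (black) and all tested genes of the senescence lists, the WRKY and SWEET families and the leaf and root markers. SAG29 (1.56), YLS5 (1.35) and WRKY6 (1.07) lie farthest to the right, and WRKY53 (0.39) lies among the other genes. No gene shown was called, where 0.0220% of all probe sets tested were.

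The genes whose profile was most like each of the 3 were listed by Pearson's r over the 6 arrays among 7347 named genes, as a description. An r of 0.9 or more was reached by 135 genes (1.84%) for SAG29, 264 (3.59%) for WRKY6 and 27 (0.367%) for WRKY53. WRKY6 ranked 58th by likeness to SAG29, and SAG29 ranked 126th by likeness to WRKY6. WRKY53 ranked 794th for SAG29 and 1340th for WRKY6. The points of each r share the same 6 arrays and the same genotype difference.

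Most like SAG29 were AT5G02420 (r = 0.99), AT5G17650 (0.99), CYP71B6 (0.99), SRC2 (0.99) and UGT87A2 (0.99). CYP71B6, a cytochrome P450 acting on an indole nitrile, had 2352, 3138 and 2506 in sid2.2 and 1194, 1286 and 1676 in Col-0. UGT87A2, a glycosyltransferase, had 1543, 2523 and 1671 in sid2.2 and 652, 752 and 1011 in Col-0. Both had the SAG29 pattern of sid2.2 culture 2 highest and Col-0 culture 1 lowest. The most opposite were AT2G45990, AT1G49560 and AT1G52670 (each r = -0.99), the first at -0.88 with median centring.

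Most like WRKY6 were AT3G56460, AT3G58540, AT4G01870, AT1G10585 and ALDH6B2 (each r = 0.99). AT4G01870 had 984, 2130 and 865 in sid2.2 and 113, 133 and 484 in Col-0, a difference of 2.65 (adjusted p = 0.348). ALDH6B2, an aldehyde dehydrogenase of valine breakdown, had 2002, 2289 and 1792 in sid2.2 and 1163, 1184 and 1736 in Col-0. As for WRKY6, their Col-0 culture 3 value came closest to sid2.2. The most opposite were atpI (r = -0.998), LPA19 (r = -0.997) and AT2G14660 (r = -0.99). atpI, a chloroplast-encoded subunit of the ATP synthase, had 263, 141 and 278 in sid2.2 and 760, 663 and 338 in Col-0. LPA19, which helps to assemble photosystem II, had 614, 410 and 636 in sid2.2 and 1136, 1036 and 674 in Col-0.

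Most like WRKY53 were AT2G32030 (r = 0.99), AT1G66090 (0.96), AT1G17860 (0.96), AT1G03660 (0.95) and AT1G74790 (0.95). AT2G32030 had 134, 164 and 111 in sid2.2 and 97.5, 81.6 and 73.2 in Col-0, with the Col-0 arrays in the order seen for WRKY53. The most opposite were ARR15 (r = -0.98), ATKDSA2 (r = -0.98) and AT1G45688 (r = -0.97). With each array centred on its median these were -0.85, -0.71 and -0.49. ARR15, a response regulator of cytokinin signalling, had 216, 179 and 299 in sid2.2 and 297, 414 and 497 in Col-0. None of the genes named for likeness or opposition was called, where 0.0220% of all probe sets tested were.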

How the data were processed

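The authors deposited 1 signal intensity per probe set on a linear scale. The submitters' processing notes name MAS5, and the software version, like the image analysis, is not given in the sources used here. RNA (200 ng per pool) was amplified and biotin-labelled, per the labels' protocols. After trimming 2% at each end the array means were 499.8, so scaling has removed any change in total signal. Arrays have no counting depth. Their number limits the precision.

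Probe sets were named through the platform annotation, updated from RefSeq (TAIR10.1). The members, lists and tests were chosen with earlier results of these data known. Intensities were log2 transformed without pseudocount. Controls were left out, as were the dimmest 40% of the others by mean log2 intensity. limma 3.58.1 (R 4.3.3; lmFit, eBayes with trend, two-sided) compared sid2.2 with Col-0 over all 6 arrays. The fit was tested on simulated data with independent noise on each array. These arrays share a large first component, so that run does not test the calls made here.

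Named besides the members were up to 4 brightest tested genes per list, or all where 6 or fewer were tested, and the 5 most like and 3 most opposite genes by r. SWEET2, SWEET4 and SWEET16 were added after their values were seen. Entries were matched by locus. For YLS3, S3H and CV the RefSeq table gave no such symbol, and the last is written as AT2G25625. The culture numbers pair the arrays, since a culture is a shared growth round per the labels. Deviations from the genotype mean correlated at -0.035, -0.53 and -0.55 in cultures 1, 2 and 3. Culture was an alternative block.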

Additional observations from a re-analysis of the deposited data

How the results depend on the processing

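With culture as a replicate block no member gene was called (limma adjusted p = 0.895 for SAG29 and 0.998 for WRKY6 and WRKY53), and the block changed no call of a named gene, but the number of probe sets called was 0 instead of 3 (550 at an unadjusted p under 0.05). That number was also 0 without the low-signal filter and with the lowest 60% left out, 1 with quantile normalization, 5 with a pseudocount of 50, 1 without the mean-variance trend, 43 with array weights, 0 to 728 with 1 array or culture left out, and 235 with the pair sid2.2 replicate 2 and Col-0 replicate 3 left out (added after seeing the data). SAG29 passed without that pair (1.62), and its difference was 1.30 to 1.80 with 1 array or culture left out. SAG29 and WRKY6 have no value with the lowest 60% left out, since they lie under that limit. Of the other genes of the lists 0 to 1 were called with 1 array or culture left out, and 1 without the pair. The correlation of SAG29 and WRKY6 was 0.83 and no longer passed without its 2 farthest arrays. The part of the fewer arrays and of those 2 arrays in this was not tested. The ratios kept their sign in all their alternatives. For those of SAG29, which did not overlap between genotypes, leaving arrays out could not turn it. Of the 20 other named list genes, YLS5, AT2G25625, GAMMA-VPE, PPDK and WRKY20 kept their sign throughout. With 1 array or culture left out the difference ran from -0.0996 to 0.907 for EIN3, -0.48 to 0.71 for SAG101, -0.14 to 0.050 for NOL, -0.25 to 0.27 for BETA-VPE, -0.073 to 0.91 for WRKY47, -0.12 to 0.67 for SWEET11, -0.15 to 0.10 for SWEET13, -0.23 to 0.599 for RCA, -0.16 to 0.38 for LHCB4.1, -0.55 to 0.55 for PRK, -0.83 to 0.13 for SBPASE, -0.52 to 1.42 for PYK10, -0.020 to 0.45 for ZAP1, -0.34 to 0.38 for SWEET1 and -0.62 to 0.12 for SWEET17. SAG101 was at -0.023 with quantile normalization, -0.038 with median centring and -0.15 without the pair. SWEET1 was at -0.0090 with median centring, -0.14 with array weights and -0.16 without the pair, where BETA-VPE was at 0.10 and SWEET13 at 0.018. The cause of these turns was not tested. Of the likeness values none changed sign under the 2 scalings, while with median centring r was -0.49 for AT1G45688, -0.71 for ATKDSA2, -0.85 for ARR15 and -0.88 for AT2G45990, and with quantile normalization -0.87 for ATKDSA2. Signals near the bacterial controls limit what can be said of dim genes.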

Other observations

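Of the list genes with a probe set, 11 lay under the low-signal limit and were not tested. The ones named here were picked after their values were seen. SWEET8 had signals of 41.0, 155 and 93.4 in sid2.2 and 28.0, 45.0 and 56.9 in Col-0 in cultures 1, 2 and 3, a log2 difference of 1.02, with the same highest and lowest array as SAG29. SWEET6 had 73.8, 53.7 and 60.5 in sid2.2, all above its 20.6, 17.1 and 48.3 in Col-0, a log2 difference of 1.27. SWEET7 had 2.39, 20.7 and 19.4 in sid2.2, all below its 41.7, 41.7 and 43.8 in Col-0, a log2 difference of -2.10. SWEET8 lay above the 95th percentile of the bacterial controls on 5 of 6 arrays, SWEET6 on 4 and SWEET7 on 3. That percentile was 39.4, 27.9 and 39.9 in sid2.2 and 30.8, 28.7 and 31.8 in Col-0. WRKY22, another WRKY factor of senescence, had 76.7, 51.0 and 83.5 in sid2.2 and 39.99, 42.6 and 80.0 in Col-0, and overlapped between genotypes.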
